A study of Mus musculus with 14 samples.

Results

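Mitochondrial ribosomal proteins build the ribosome that works inside mitochondria, and their messenger RNAs were followed here through a reversion of mouse epiblast stem cells towards the embryonic stem cell state. The members are the rows of a read count table whose gene symbol starts with Mrpl or Mrps followed by a digit, 77 of 24015 rows in all. There were 48 Mrpl and 29 Mrps symbols. Every member had a count in each of the 14 libraries, the lowest being 12 counts for Mrpl23, and all 77 passed the filter on low counts that left 16247 genes for testing.

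The libraries came from 7 groups of 2 mouse cultures, which the series' design text calls biological duplicates. Embryonic stem cells (ESC; CD1/JF1 background) grew in LIF on feeder cells and represent naive pluripotency, while primed pluripotency is represented by epiblast stem cells (EpiSC; CD1/JF1) grown with bFGF. EpiSC of the same CD1/JF1 genotype were treated with 100 µM MM401, which blocks Mll1, a histone methyltransferase encoded by Kmt2a, in LIF medium for 3 days (MM401 day 3) or for 6 days, up to passage 2 (MM401 P2). Reverted lines (rES; CD1-deltaTSIX/JF1), kept with 25 µM MM401 and LIF after passage 3, were sampled at passage 6, at passage 30, and at passage 30 without MM401, with no stated time since withdrawal. LIF medium and MM401 entered together, so they cannot be told apart in any comparison with EpiSC, and the rES genotype cannot be told apart from the reverted state. The labels do not state how many independent rES lines there were. Below, the reverted line stands for the rES cultures as a group, and passage cannot be told apart from line if lines differed between passages. These are bulk RNA samples, in which fewer cells of a type and less RNA per cell cannot be told apart.

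The mitochondrial ribosome (mitoribosome) translates the few proteins that mitochondrial DNA encodes, all of them subunits of the respiratory chain and ATP synthase. Its ribosomal RNAs are made in the organelle, while all of its proteins are encoded in the nucleus, made in the cytosol and imported. The large subunit forms peptide bonds and the small subunit decodes the messenger. Some of its proteins descend from those of bacterial ribosomes and others were added in the mitochondrial lineage. Pluripotent cells pass from an energy metabolism that uses both respiration and glycolysis in the naive state to a mainly glycolytic one in the primed state. A few symbols do not follow the subunit that they name: Mrps30 and Mrps18a sit in the large subunit of mammalian mitoribosomes, and Mrps36 is now regarded as a part of the 2-oxoglutarate dehydrogenase complex.

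Libraries held 20831588 to 23677089 counts outside the MM401 day 3 and P2 groups, and 74952496 to 116086115 counts in those. Log2 levels of replicates correlated across genes with a Pearson r of 0.9976 to 0.9987. The summed naive markers (8 genes) stood at 718 and 697 CPM (counts per 1e6 counts) in EpiSC and at 2910 to 6715 in the other libraries. The summed primed markers (8 genes) stood at 2831 and 2836 in EpiSC against at most 726 elsewhere. That sum hides a split: by the test given below, 5 primed markers were lower and 3 higher in ESC than in EpiSC. Their log2 fold changes ran from -2.99 to 4.89, and 37.5% of all genes tested were lower and 37% higher. Markers of feeder fibroblasts (12 genes, all detected in every library) summed to 15214 and 15100 CPM in MM401 P2, to 4065 to 5123 in ESC, EpiSC and MM401 day 3, to 2693 and 2737 in rES passage 6, and to 1200 to 1242 at rES passage 30 with or without MM401.

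Promoters of mitoribosomal genes are known to be rich in sites for the factors NRF1 and YY1 and for ETS-family factors such as GABP, and sequence is shown here because many members moved together below. RefSeq (GRCm38.p6) gave a promoter for 68 of the 77 members, from 250 bases before to 50 bases after the start of the gene. On either strand, 13 of these 68 windows (19.1%) held the NRF1 motif with 1 free base in its middle, against 5.19% of 27025 genes and 7.17% of 17491 protein-coding genes. The ETS word CCGGAAG was found in 25 of the 68 (36.8%), against 9.93% of all genes and 12.9% of protein-coding genes. The YY1 core word AAGATGGC was found in 12 (17.6%), against 3.19% and 3.57%. The E-box word CACGTG, bound by Myc, was found in 5 (7.35%), against 8.09% and 8.91%. The full NRF1 palindrome, which is a case of that motif, was found in 3 members. A match is a description of letters and does not show that a factor binds.

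The 120 bases before the start are printed 5′ to 3′ on the gene's strand for 6 members that recur below, with matches to the NRF1 motif with 1 free base or to CCGGAAG on either strand in capitals. Mrpl12 (chr11:120484517-120484636, plus strand) and Mrpl32 (chr13:14613038-14613157, minus strand) rose after MM401 withdrawal, Mrpl45 (chr11:97315596-97315715, plus strand), which also rose there, held 2 matches, and Mrps18a (chr17:46110884-46111003, plus strand) belongs to a trio of paralogs with opposite changes.
Mrpl12: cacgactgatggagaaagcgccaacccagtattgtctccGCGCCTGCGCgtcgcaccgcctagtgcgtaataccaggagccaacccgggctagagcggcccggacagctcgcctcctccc
Mrpl32: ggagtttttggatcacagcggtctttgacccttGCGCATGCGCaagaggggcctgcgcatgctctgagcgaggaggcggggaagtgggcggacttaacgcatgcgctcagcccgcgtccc
Mrpl45: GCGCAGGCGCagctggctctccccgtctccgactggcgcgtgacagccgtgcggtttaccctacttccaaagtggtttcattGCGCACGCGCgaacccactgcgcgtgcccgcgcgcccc
Mrps18a: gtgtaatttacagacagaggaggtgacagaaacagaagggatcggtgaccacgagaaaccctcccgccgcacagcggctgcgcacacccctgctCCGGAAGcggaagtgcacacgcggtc
The other 2 windows belong to Mrps2 (chr2:28467946-28468065, plus strand), which was high in every group but EpiSC, and to Mrps23 (chr11:88204268-88204387, plus strand), which was highest in EpiSC. Neither holds a match within these 120 bases, though the full promoter window of Mrps23 holds CCGGAAG. The 6 genes were picked as examples. Of the 24 members with a promoter that rose after MM401 withdrawal, only 7 (29.2%) held the NRF1 motif with 1 free base.
Mrps2: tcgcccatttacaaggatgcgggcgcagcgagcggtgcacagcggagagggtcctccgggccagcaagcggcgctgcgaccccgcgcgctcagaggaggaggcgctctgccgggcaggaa
Mrps23: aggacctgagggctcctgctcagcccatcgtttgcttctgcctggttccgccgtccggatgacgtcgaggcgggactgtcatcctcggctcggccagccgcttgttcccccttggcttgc

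Levels below are CPM of library size after trimmed-mean (TMM) scaling, given for replicates 1 and 2 in that order. Sums of marker genes are the exception, here and above: they are CPM of the library total without TMM scaling. Fold changes are log2 values ± their standard error from edgeR's quasi-likelihood test on all 14 libraries, n = 2 per group. A member is called higher or lower, or said to have risen or fallen, at a Benjamini-Hochberg adjusted p under 0.05 over all 16247 genes tested. The p-values measure the spread between these libraries only.

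Corrected for transcript length, the members differed widely in level. Averaged over the 14 libraries, Mrpl52 had the highest level, 123 CPM per kilobase, followed by Mrpl2, a protein of the peptidyl transferase centre, at 106, Mrpl28 at 95.7 and Mrpl33 at 82.0. The lowest were Mrpl48 at 1.75, Mrpl23 at 1.78, Mrps33 at 3.90 and Mrps36 at 4.54 CPM per kilobase. Counting may have split some of these: 29 of the 77 members share at least 10% of their 50-base stretches with another annotated gene and are uncertain for that reason. Mrpl23 shares 76.4% with its pseudogene Mrpl23-ps1, and Mrps36 shares 36.2% with Mrps36-ps1 and Mrps36-ps2. Neighbours on the opposite strand overlap others, such as Mrps34 (52.4%, Mapk8ip3) and Mrps25 (73.9%, Nr2c2), and whether strand was used in counting is not stated.

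Summed over the 77 members, the level was highest in MM401 day 3, where it came to 4848 and 4797 CPM. It was 4270 and 4262 in EpiSC, 4097 and 4153 in rES passage 30 without MM401, and 3986 and 3959 in ESC. In MM401 P2 it was 3828 and 3958, in rES passage 30 it was 3727 and 3705, and in rES passage 6 it was 3681 and 3631. No pair of groups overlapped on this scale, though ESC adjoined MM401 P2 and the 2 rES passages with MM401 adjoined each other. As a share of all counts, without TMM scaling, the members held 0.467% and 0.466% in EpiSC and 0.468% and 0.467% in MM401 day 3, so these groups overlapped on that scale. The share was 0.391% and 0.389% in ESC, 0.376% and 0.392% in MM401 P2, 0.369% and 0.364% in rES passage 6, 0.369% and 0.361% in rES passage 30, and 0.406% and 0.408% after withdrawal. The ratio of summed Mrpl to summed Mrps counts was 2.21 and 2.20 in EpiSC and between 1.86 and 2.06 in the other 12 libraries. With 2 libraries a group, an exact permutation test of a single sum between a pair of groups cannot reach a p under 0.05, and no test of the sums was run.

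**Figure D1:**
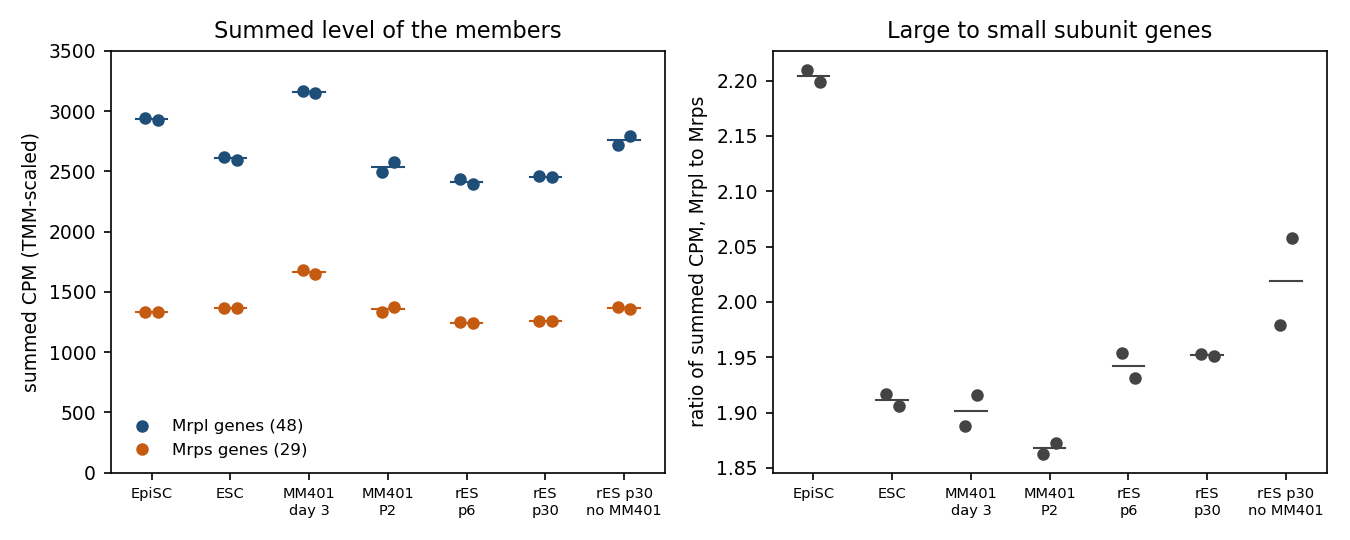
Summed TMM-scaled CPM of the Mrpl and Mrps members in each library (left) and the ratio of the sums (right), with 2 points per group. MM401 day 3 had the highest sums, and EpiSC had the highest ratio, 2.21 and 2.20.

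Each of the 77 members differed among the 7 groups at an adjusted p under 0.05 (edgeR), as did 97.6% of all genes tested, so the count by itself does not set the members apart. The differences were mostly small. Over the 7 group means, the range from lowest to highest had a median of 1.61-fold, 11 members spanned over 2-fold and 28 spanned under 1.5-fold. The widest ranges belonged to Mrpl23 (2.74-fold, at no more than 1.99 CPM in any library), Mrps23 (2.65-fold), Mrpl55 (2.65-fold), Mrpl38 (2.64-fold), Mrps34 (2.46-fold), Mrps18b (2.36-fold), Mrpl20 (2.21-fold) and Mrpl12 (2.20-fold). The narrowest belonged to Mrps26 and Mrpl30 (each 1.23-fold), Mrpl50 (1.23-fold) and Mrpl45 (1.29-fold). MM401 day 3 was the group with the highest mean for 35 members and EpiSC for 26, followed by rES without MM401 for 11. Most lowest means fell in rES passage 6 (18 members), rES passage 30 (17), ESC (14), EpiSC (13) and MM401 P2 (12). No member was lowest in MM401 day 3 and none was highest in rES passage 30 with MM401. Ranges and highest or lowest groups were not counted over all genes, so these counts do not set the members apart. They also rest on TMM scaling. On library totals, 30 members were higher and 30 lower at day 3 than in EpiSC, against 29.7% and 47.2% of all genes.

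**Figure D2:**
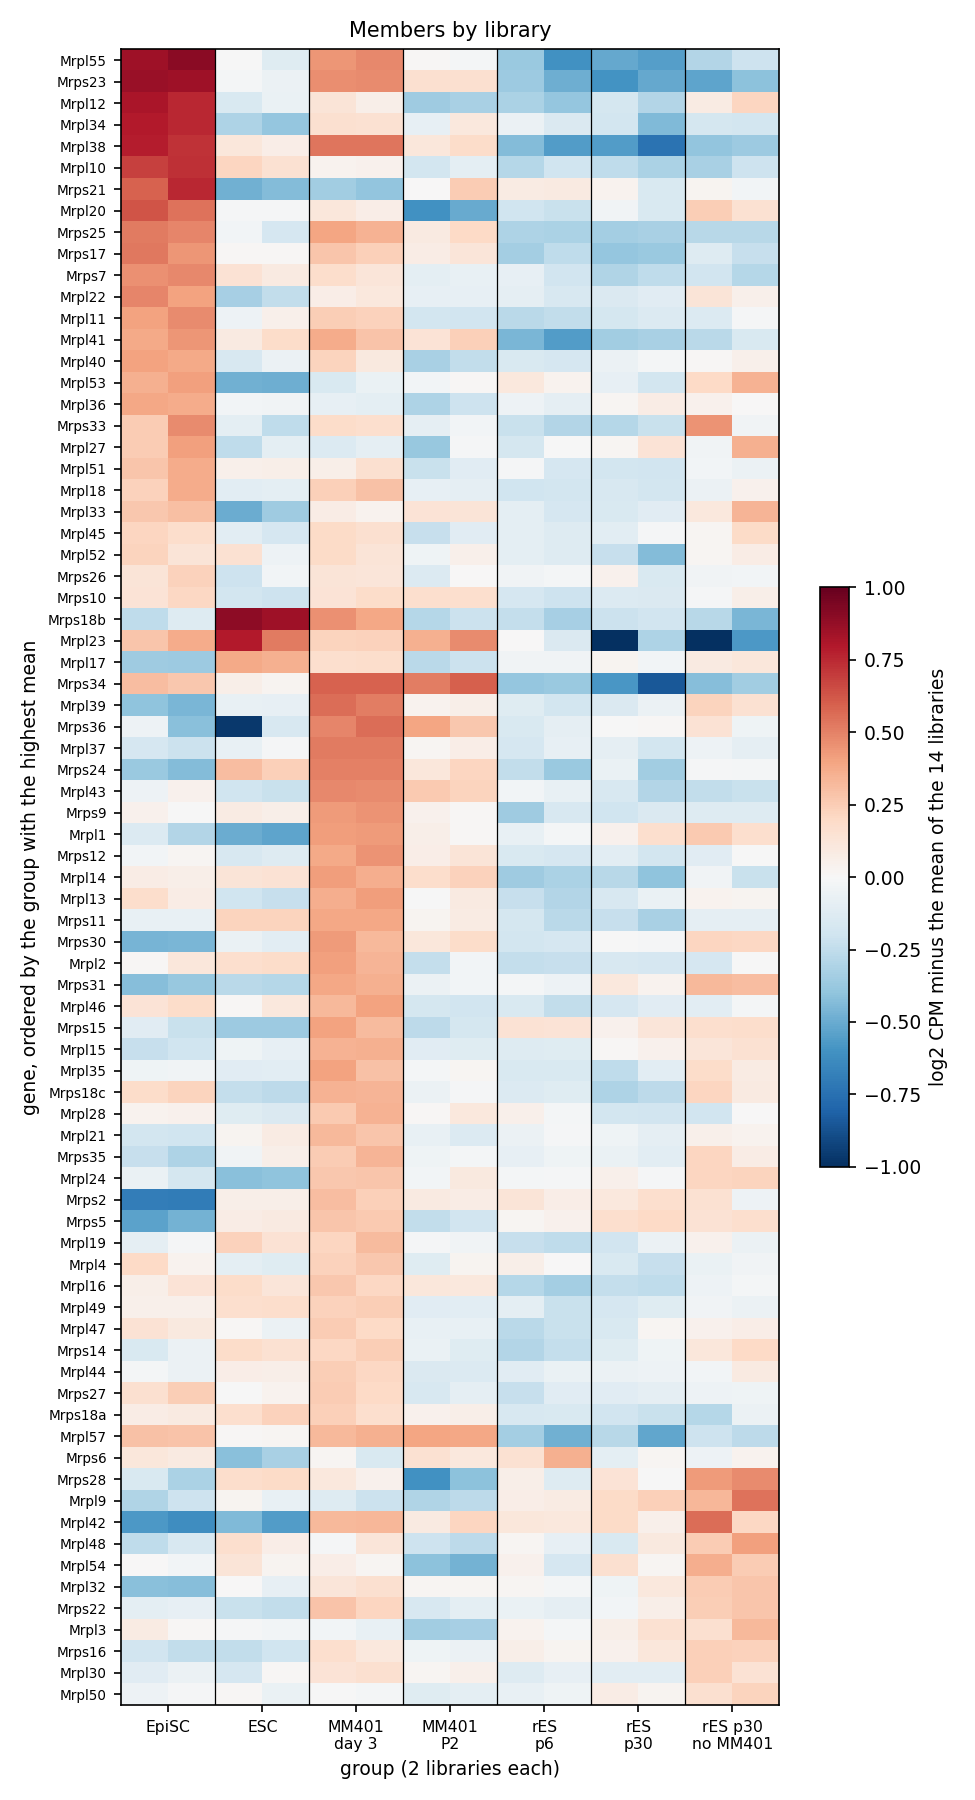
Log2 CPM of each member in each library, minus the mean of that member over the 14 libraries, with rows ordered by the group of the highest mean and the colour scale ending at 1 in either direction. On this TMM scale, a block of 26 members was highest in EpiSC and a block of 35 in MM401 day 3, and the same was not counted over all genes.

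Naive and primed cells were compared first. Between ESC and EpiSC the members split: 39 were lower and 20 higher in ESC, and 18 were not called, against 37.5% lower and 37% higher among all genes tested. The median log2 fold change of the members was -0.14, while that of all genes was 0.00. Both ESC libraries lay below both EpiSC libraries for 43 members (44.1% of all genes did so) and above them for 28 (43.9%). The 48 Mrpl members had 24 lower and 10 higher, and the 29 Mrps members had 15 lower and 10 higher. Members with a bacterial counterpart (24 lower and 12 higher of 46) and those specific to mitochondria (14 lower and 8 higher of 29) had medians of -0.16 and -0.13. Counts scaled to the library total alone moved the median of all genes by -0.15 and the split of the members to 46 lower and 9 higher. On that scale 44.6% of all genes were called lower and 30.2% higher. Over the 48 members that share under 10% of their stretches, the median was -0.038. Markers of primitive endoderm, an extraembryonic lineage, were all higher in ESC (7 of 7, median 3.99), with sums of 1509 and 1510 CPM against 178 and 177 in EpiSC, and of the feeder markers 5 were higher and 7 lower. Their part in the result was not tested.

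Among the large subunit genes, Mrpl12, the counterpart of the bacterial stalk protein that recruits translation factors, stood at 167 and 159 CPM in EpiSC and at 85.2 and 90.2 in ESC. The 2 groups did not overlap, and Mrpl12 was lower in ESC (log2 fold change -0.89 ± 0.05, adjusted p = 3.6e-19, edgeR). Mrpl34, the counterpart of the small bacterial protein L34, stood at 66.8 and 64.9 in EpiSC and at 31.1 and 29.4 in ESC, and fell the most of the Mrpl members (-1.12 ± 0.07). Mrpl55 was at 60.1 and 62.5 against 33.4 and 30.7 (-0.93 ± 0.07). Both ESC libraries of each of these genes had about the same low level. Mrpl53 (-0.86 ± 0.07), Mrpl22 (-0.74 ± 0.08) and Mrpl33 (-0.71 ± 0.07) also fell, all of them uncertain for shared sequence; Mrpl53 lies wholly within sequence that Gm42688 holds too. Mrpl17, found at the exit of the peptide tunnel in bacterial ribosomes, was at 113 and 113 in EpiSC and at 189 and 186 in ESC, and was the large subunit member with the largest rise (0.73 ± 0.04). Mrpl32, which the mitochondrial m-AAA protease must cut before it joins the ribosome, rose by less (0.39 ± 0.07).

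Among the small subunit genes, Mrps18b showed the largest rise, from 31.8 and 34.8 CPM in EpiSC to 70.7 and 68.5 in ESC (1.06 ± 0.06). It shares 63.7% of its stretches with Gm16279 on the opposite strand and with Gm13552. Mrps2 was at 81.6 and 81.0 in EpiSC and at 138 and 137 in ESC (0.76 ± 0.05), with no overlap between the groups. Mrps24, the counterpart of bacterial S3 at the mRNA entry, rose as well (0.68 ± 0.06), as did Mrps5 (0.59 ± 0.05) and Mrps28 (0.41 ± 0.07). Mrps30, which belongs to the large subunit, rose by 0.38 ± 0.05. Mrps21 fell the most of all members, from 27.9 and 31.4 to 13.3 and 13.7 (-1.13 ± 0.10), with 13.7% of its stretches shared with Gm6181. Mrps23 was at 97.7 and 96.2 in EpiSC and at 52.8 and 51.6 in ESC (-0.89 ± 0.05). Variants in the human counterparts of Mrps22, Mrps34 and Mrpl3 cause mitochondrial disease. In mouse ESC, Mrps22 (-0.14 ± 0.07) and Mrps34 (-0.25 ± 0.06) were lower than in EpiSC, and Mrpl3 was not called (-0.07 ± 0.05). Mrps12, the counterpart of the S12 protein of the decoding centre, was called at -0.14 ± 0.06, a call that was lost whenever any 1 of the 4 libraries was left out, as was that of Mrps22.

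**Figure D3:**
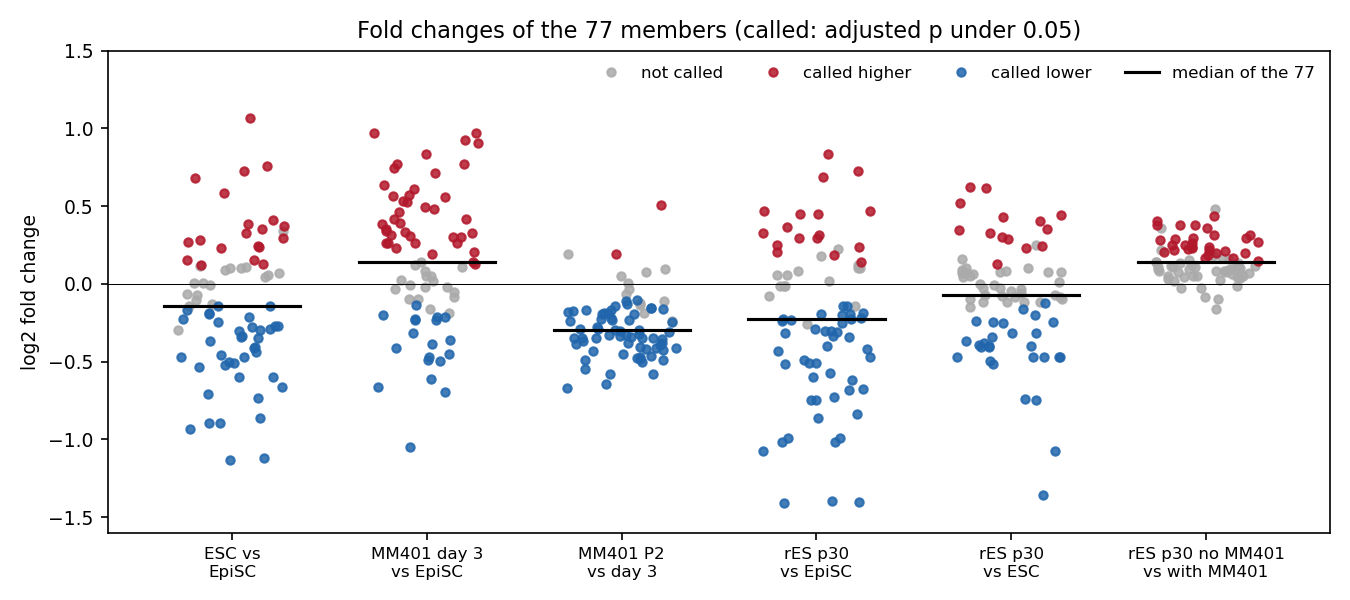
Log2 fold changes of the 77 members in the 6 main comparisons, 1 point per member, coloured by call (adjusted p under 0.05, edgeR), with the median as a black line. The median was lowest for MM401 P2 against day 3 (-0.29), where 63 members fell, against 33.3% of all genes tested. Withdrawal of MM401 had 30 higher members and no lower one, against 10.4% higher and 9.3% lower among all genes.

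The early response to LIF and MM401 was compared next. After 3 days, 40 members were higher than in EpiSC, 19 were lower and 18 were not called, against 38.7% higher and 37.9% lower among all genes. The members' median log2 fold change was 0.14, against 0.00 for all genes. Both day 3 libraries lay above both EpiSC libraries for 45 members (44.4% of all genes) and below for 24 (44%). The higher members included 17 of 29 Mrps (5 lower, median 0.33) and 23 of 48 Mrpl (14 lower, median 0.09). Scaling to the library total alone moved the median of all genes by -0.17 and that of the members to -0.03, with 30 members higher and 30 lower, against 29.7% higher and 47.2% lower among all genes. The members' median was 0.22 over the 48 that share under 10% of their stretches and 0.088 with trends on transcript length and GC content removed. The day 3 libraries were also the deepest, and the share of Rn45s, the ribosomal RNA precursor, was 1.79% ± 0.16 (SD, n = 2) there and 0.39% ± 0.06 in EpiSC. Their part in the result was not tested beyond thinning all libraries to the depth of the shallowest and, apart from that, leaving out Rn45s. Under each of these the counts moved by less than 1.5 times. Primitive endoderm markers (5 higher and 1 lower of 7) and feeder markers (4 higher and 6 lower of 12) differed too, and their part was not tested.

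Mrpl39, which has a fold related to threonyl-tRNA synthetase, was among the 2 largest rises, from 91.1 and 87.6 CPM in EpiSC to 178 and 172 at day 3 (0.97 ± 0.04). Its libraries were tight in both groups. Mrpl42 rose from 29.9 and 29.1 to 56.0 and 56.4 (0.93 ± 0.08), with 18.8% of its stretches shared with Gm6419. Mrps2 rose from 81.6 and 81.0 to 163 and 156 (0.97 ± 0.05) and Mrps24 to 89.1 and 89.0 (0.91 ± 0.06). Mrps30, a large subunit protein despite its name, rose to 108 and 101 (0.84 ± 0.05), and Mrps31 to 80.0 and 78.3 (0.77 ± 0.05). Mrps5 (0.77 ± 0.05), Mrps36 (0.74 ± 0.18, at no more than 4.54 CPM) and Mrpl37 (0.72 ± 0.05) rose too. Mrpl37 is a mitochondria-specific protein of the large subunit.

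The members that fell by day 3 included both parts of the stalk. Mrpl12 fell to 103 and 98.4 CPM (-0.69 ± 0.05), and Mrpl10, which anchors the stalk, fell from 153 and 158 to 97.9 and 98.4 (-0.66 ± 0.04). Both share over 10% of their stretches with neighbours. Mrps21 fell to 14.5 and 14.1 (-1.05 ± 0.08), Mrpl34 to 43.2 and 43.0 (-0.61 ± 0.06) and Mrpl20 to 53.4 and 51.6 from 76.3 and 72.0 (-0.50 ± 0.05). Mrpl53 (-0.49 ± 0.06), Mrpl36 (-0.47 ± 0.06) and Mrpl27 (-0.45 ± 0.11) fell by about as much as each other. Mrpl45, which lies by the peptide exit and the inner membrane, was not called (-0.02 ± 0.05).

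Set against ESC instead, day 3 cells had 54 members higher and 4 lower (35.6% of all genes were higher and 35.6% lower). The median was 0.25. The largest rises were those of Mrps36 (1.04 ± 0.20), Mrpl1 (0.93 ± 0.06) and Mrpl42 (0.83 ± 0.08), and the members lower at day 3 were led by Mrps18b (-0.45 ± 0.06) and Mrpl17 (-0.19 ± 0.04). This split was the same under RLE size factors and under library totals. With the trends on length and GC content removed, 51 were higher and 7 lower, against 36.9% and 36.2% of 14718 genes. All 7 primitive endoderm markers were lower at day 3 than in ESC (median -1.53), and 8 feeder markers were higher and 4 lower. Their part was not tested.

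Between day 3 and passage 2 of the treatment nearly the whole group moved one way. Of the 77 members, 63 fell, 2 rose and 12 were not called, against 33.3% lower and 37.5% higher among all genes tested. The members' median log2 fold change was -0.29 and that of all genes was 0.04. Both P2 libraries lay below both day 3 libraries for 68 members (38.7% of all genes) and above for 6 (43%). The falls took in 40 of 48 Mrpl and 23 of 29 Mrps members, and 38 of 46 members with a bacterial counterpart and 25 of 29 mitochondria-specific ones. Single falls were small, the largest being 1.59-fold.

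Mrps18b fell from 52.0 and 49.8 CPM at day 3 to 31.2 and 32.7 at P2 (-0.67 ± 0.05, adjusted p = 5.1e-14, edgeR). Mrpl20, the counterpart of a bacterial protein that acts early in large subunit assembly, fell from 53.4 and 51.6 to 32.3 and 34.8 (-0.64 ± 0.05). Mrpl2 went from 143 and 137 to 91.4 and 106 (-0.50 ± 0.05). In each of them both P2 libraries were below both day 3 libraries, although the 2 P2 values of Mrpl2 were further apart than those of the other 2 genes. Mrps28 (-0.58 ± 0.06), Mrps15 (-0.58 ± 0.05), Mrpl46 (-0.55 ± 0.05), Mrpl39 (-0.49 ± 0.04) and Mrpl54 (-0.49 ± 0.06) complete the 8 largest falls. From the panel of members with well-described roles, Mrpl12 (-0.43 ± 0.04), Mrpl44 (-0.36 ± 0.05), which has an RNase III-like fold, Mrpl45 (-0.35 ± 0.05), Mrps12 (-0.32 ± 0.05) and Mrps27 (-0.35 ± 0.05), a pentatricopeptide repeat protein, fell by similar amounts. Mrps34 (-0.03 ± 0.05), Mrpl41 (-0.14 ± 0.06) and Mrps36 (-0.19 ± 0.15) were not called. The 2 rises were Mrps21, from 14.5 and 14.1 to 18.6 and 22.2 (0.51 ± 0.08), and Mrps6, from 21.8 and 19.4 to 23.9 and 23.2 (0.19 ± 0.07). The rise of Mrps6 was not called without MM401_D3 replicate 2 or without MM401_P2 replicate 1.

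The feeder fibroblast markers moved with these falls: all 12 rose between day 3 and P2, with a median log2 fold change of 1.74, and their sum went from 5031 and 5123 to 15214 and 15100 CPM. The 3 general pluripotency markers and all 8 naive markers fell, with medians of -0.35 and -0.71. The part of a changing share of feeder cells in the members' falls was not tested. Replicate 2 of this group is titled P2b and replicate 1 P2. With any 1 of the 4 libraries left out, between 55 and 62 members were lower.

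Against EpiSC, P2 cells had 35 members lower and 18 higher (33.8% and 42.1% of all genes), with a median of -0.06. Mrpl12 (-1.13 ± 0.05), Mrpl20 (-1.14 ± 0.05) and Mrpl55 (-0.88 ± 0.06) were lower by the most, and Mrps2 (0.78 ± 0.05), Mrpl42 (0.75 ± 0.08) and Mrps30 (0.61 ± 0.05) higher by the most. All 12 feeder markers (median 1.40) and all 7 primitive endoderm markers (median 2.16) were higher at P2, and their part in the result was not tested. On the scale of library totals the split was 47 lower and 9 higher, against 41.7% lower and 34.4% higher among all genes.

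**Figure D4:**
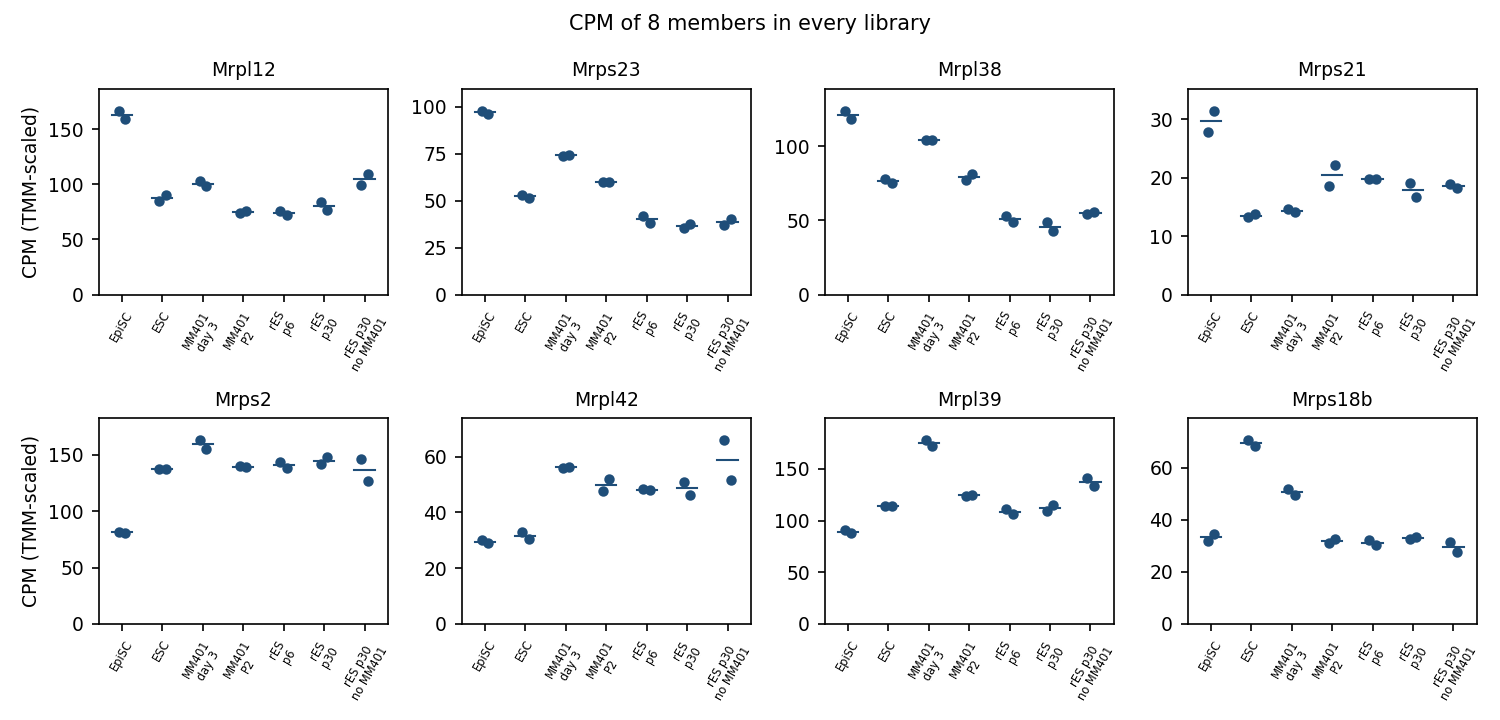
TMM-scaled CPM of 8 members in every library, with each vertical axis starting at 0, 2 points per group and a bar at their mean. Mrpl12, Mrps23, Mrpl38 and Mrps21 were highest in EpiSC, Mrps2 and Mrpl42 were lowest there, Mrpl39 was highest at MM401 day 3 and Mrps18b in ESC.

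The established reverted line was compared with the EpiSC state. At rES passage 30 with MM401, 45 members were lower than in EpiSC, 17 were higher and 15 were not called, against 38.3% lower and 38% higher among all genes. The members' median was -0.23, that of all genes -0.02. Both rES libraries lay below both EpiSC libraries for 47 members (44.8% of all genes) and above for 23 (43.4%). Lower were 30 of 48 Mrpl and 15 of 29 Mrps members. Scaling to library totals gave 52 lower and 11 higher, against 46.1% and 31.2% of all genes, whose median moved to -0.17. The feeder markers were also lower (11 of 12) and 5 of 7 primitive endoderm markers higher, and their part in the result was not tested.

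The largest falls, of 2.65-, 2.65- and 2.64-fold, were those of 3 members. Mrps23 fell from 97.7 and 96.2 CPM to 35.5 and 37.7 (-1.41 ± 0.06, adjusted p = 4.1e-24, edgeR). Mrpl55 fell from 60.1 and 62.5 to 23.5 and 22.8 (-1.40 ± 0.07), and Mrpl38, a mitochondria-specific protein related to phosphatidylethanolamine-binding proteins, from 124 and 118 to 48.6 and 42.9 (-1.40 ± 0.06). For each of the 3 genes, every rES library at passage 6 or 30 was below every EpiSC, ESC, MM401 day 3 and MM401 P2 library. Mrpl34 (-1.07 ± 0.07), Mrpl12 (-1.02 ± 0.05), Mrpl10 (-0.99 ± 0.05) and Mrps34 (-0.99 ± 0.07) were lower by about 2-fold, and so was Mrpl23 (-1.02 ± 0.35), whose call was lost without rES_p30 replicate 1. Mrps2, at 142 and 148, was the largest rise (0.83 ± 0.05). Mrpl42 was at 51.1 and 46.3 (0.72 ± 0.08) and Mrps5 at 68.1 and 69.5 against 41.8 and 43.7 in EpiSC (0.69 ± 0.05). Mrps31 (0.47 ± 0.05), Mrpl9 (0.47 ± 0.06), Mrps30 (0.45 ± 0.05), Mrpl32 (0.45 ± 0.07) and Mrpl17 (0.36 ± 0.04) rose by less.

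Already at passage 6 the reverted line had 42 members lower and 15 higher than EpiSC (35.1% and 38.7% of all genes), led by Mrpl55 (-1.36 ± 0.07), Mrps23 (-1.28 ± 0.06) and Mrpl38 (-1.25 ± 0.05) among the falls and Mrps2 (0.79 ± 0.05), Mrpl42 (0.71 ± 0.08) and Mrps5 (0.53 ± 0.05) among the rises. Both comparisons use the same EpiSC libraries. On library totals the passage 6 split was 52 lower and 10 higher, against 41.6% and 32.6% of all genes. Tested directly, passage 30 against passage 6 gave 4 members higher, 7 lower and 66 not called (11.3% and 14.4% of all genes), with a median of 0.03. Mrps34 (-0.33 ± 0.07), Mrps6 (-0.30 ± 0.09) and Mrpl4 (-0.22 ± 0.06) fell, and Mrps14 (0.18 ± 0.06), Mrps30 (0.17 ± 0.05) and Mrpl15 (0.16 ± 0.04) rose. The split between higher and lower turned with the scaling, from 9 higher and 5 lower under RLE size factors (15.2% and 12.8% of all genes) to 3 higher and 10 lower on library totals (8.19% and 16.4%). With the trends on length and GC content removed, 15 were higher and 3 lower (16.7% and 13.1% of 14718 genes). All 12 feeder markers were lower at passage 30 than at passage 6 (median -1.06), and their part was not tested. These few calls also turned on single libraries: without one or another of the 4, between 2 and 7 members were higher and between 2 and 8 lower.

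The reverted line was then set against ESC, the naive reference. At passage 30, 28 members were lower than in ESC, 14 were higher and 35 were not called, against 35.8% lower and 35.3% higher among all genes tested. The median was -0.07, that of all genes -0.01. Both rES libraries lay below both ESC libraries for 38 members (42.9% of all genes) and above for 26 (42.3%). The lower members were 17 of 48 Mrpl and 11 of 29 Mrps, and the higher ones 7 and 7. With the trends on length and GC content removed, 30 were lower and 23 higher, with a median of -0.0078, against 37.1% lower and 35.1% higher among 14718 genes. Feeder markers (11 of 12 lower in rES) and primitive endoderm markers (6 of 7 lower) differed as well, and their part was not tested.

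Mrps18b, at 70.7 and 68.5 CPM in ESC, stood at 32.7 and 33.3 in the reverted line (-1.08 ± 0.07, adjusted p = 8.3e-18, edgeR), which overlaps its EpiSC level of 31.8 and 34.8. Mrpl23 was lower too (-1.36 ± 0.35), at 0.512 and 0.925 against 1.99 and 1.64 CPM. Mrps34 (-0.75 ± 0.07), Mrpl38 (-0.74 ± 0.06), Mrps23 (-0.51 ± 0.06), Mrps11 (-0.50 ± 0.07), Mrps24 (-0.47 ± 0.06) and Mrpl14 (-0.47 ± 0.07) followed. Mrps11, of the small subunit platform, overlaps Mrpl46 on the opposite strand, so reads of that pair may be mixed. The members above ESC were led by Mrpl42 (0.62 ± 0.09) and Mrpl1 (0.62 ± 0.06). Mrpl1, the counterpart of the L1 protein at the tRNA exit, was at 39.8 and 38.8 in ESC and at 57.6 and 63.0 in rES. Mrps15 (0.44 ± 0.06), Mrpl24 (0.43 ± 0.06), Mrps21 (0.41 ± 0.10), Mrpl53 (0.35 ± 0.08) and Mrps31 (0.34 ± 0.05) were higher as well. Mrps36 (0.52 ± 0.23) lost its call without ESC replicate 1 or either rES_p30 replicate. Mrpl44 (-0.12 ± 0.06), Mrpl45 (0.08 ± 0.05), Mrpl37 (-0.09 ± 0.05) and Mrps12 (-0.00 ± 0.06) were not called.

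The passage 30 line was last compared with and without MM401, where genotype, passage and LIF medium are shared. Without MM401, 30 of the 77 members were higher and none was lower at an adjusted p under 0.05 (edgeR), against 10.4% higher and 9.3% lower among all genes tested. DESeq2 called none lower either, and 1 member, Mrps18b, was lower at an unadjusted p under 0.05 in both tools (-0.16 ± 0.07, unadjusted p = 0.03 in edgeR). Without rES_p30_noMM401 replicate 1, both Mrps18b (-0.26) and Mrps2 (-0.19) were called lower. The median log2 fold change of the members was 0.14, that of all genes 0.00. Both libraries without MM401 lay above both libraries with it for 56 members (27% of all genes), below for 1 (27.4%), and overlapped for 20. The 30 higher members were 20 of 48 Mrpl and 10 of 29 Mrps. They comprised 18 of 46 with a bacterial counterpart and 12 of 29 mitochondria-specific ones.

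The largest called rise was 1.35-fold. Mrps18c went from 20.3 and 20.98 CPM with MM401 to 29.05 and 26.7 without (0.44 ± 0.08, adjusted p = 5.5e-05). Mrpl12 went from 83.7 and 77.1 to 99.8 and 109.9 (0.38 ± 0.05, adjusted p = 8.1e-07). Mrps28 went from 46.0 and 41.7 to 56.3 and 58.2 (0.38 ± 0.07). In each of these 3 genes the groups were clear of each other. Mrpl53 (0.41 ± 0.07), Mrpl52 (0.38 ± 0.07), Mrpl33 (0.36 ± 0.07), Mrpl35 (0.32 ± 0.06) and Mrps34 (0.32 ± 0.07) completed the 8 largest rises, the last of which was lost without rES_p30 replicate 2. Mrpl45 (0.16 ± 0.05), whose promoter holds 2 NRF1 motifs, and Mrps22 (0.25 ± 0.06) were called, but neither was without rES_p30 replicate 1, nor Mrpl45 without rES_p30_noMM401 replicate 2. Mrps2 (-0.08 ± 0.05), Mrps5 (-0.02 ± 0.05), Mrpl37 (0.06 ± 0.05) and Mrpl44 (0.08 ± 0.06) were not. Of the 24 higher members with a promoter, 7 (29.2%) held the NRF1 motif with 1 free base and 25.0% the ETS word. The YY1 word was found in 16.7% of them and the E-box word in 8.33%. Among the 55 members with a promoter that fell between day 3 and P2, these shares were, in the same order, 16.4%, 34.5%, 20.0% and 9.09%. Over all 68 members with a promoter they were 19.1%, 36.8%, 17.6% and 7.35%. All of these shares are a description only.

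Transcript length moved with this result. Members are short, with a median of 1234 bases against 2921 for 14718 genes with a known principal transcript. Over all of these genes the withdrawal log2 fold change had a Spearman rho of -0.33 with length, against -0.17 over the 77 members, in values that share the same 4 libraries. With all genes cut into 4 equal bins of length, in the shortest bin (up to 1885 bases) 20.5% were called higher and 2.23% lower, while 23 of the 53 members in that bin (43.4%) were called higher and none lower. In the next bin (to 2921 bases) 12.3% of all genes and 2 of 7 members were higher, in the bin of 2922 to 4405 bases 7.83% and 5 of 13, and in the longest bin 2.61% and 0 of 4. With the trend of each library on length and GC content removed, 21 members were higher and 2, Mrps18b (-0.27) and Mrps2 (-0.13), lower, with a median of 0.08, against 10.2% higher and 8.64% lower among all genes. The rRNA precursor Rn45s made up 0.55% and 2.00% of the counts in the 2 libraries with MM401 and 0.79% and 0.91% in those without, and leaving it out gave the same counts of 30 higher and 0 lower.

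**Figure D5:**
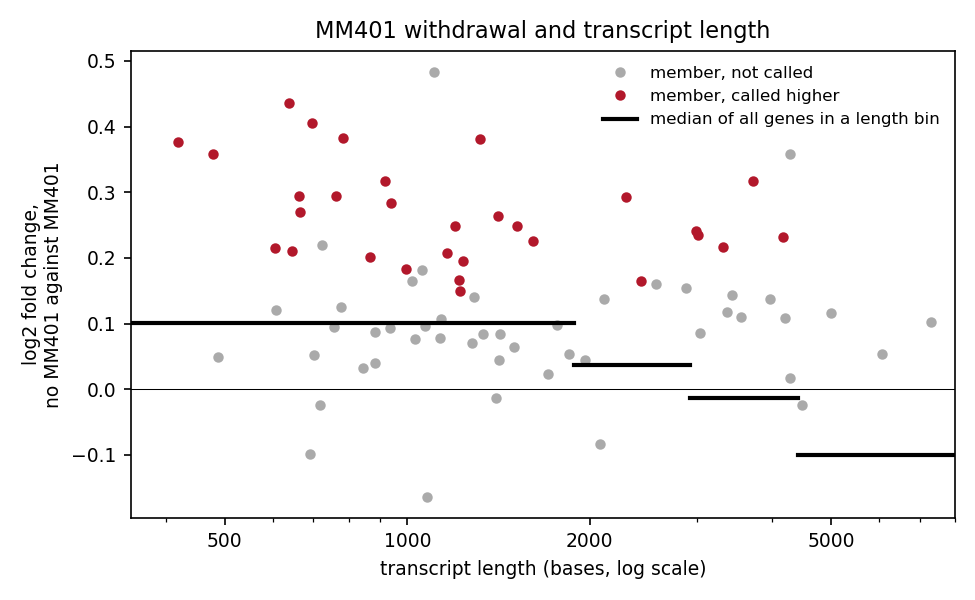
Log2 fold change of each member after MM401 withdrawal against transcript length (log axis, bases), coloured by call, with black bars for the median of all genes in each of 4 bins of length, drawn within the range of the axis. Most members lie above 0 and above the bar of their bin, whose medians run from 0.10 in the shortest to -0.10 in the longest.

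Without MM401, the line at passage 30 had 34 members higher and 22 lower than ESC (36.3% and 35% of all genes), with a median of 0.08. Mrpl42 (0.89 ± 0.08), Mrpl53 (0.76 ± 0.08) and Mrpl1 (0.73 ± 0.06) were higher by the most, and Mrpl23 (-1.46 ± 0.35), Mrps18b (-1.24 ± 0.07) and Mrpl38 (-0.47 ± 0.06) lower by the most. Mrps18b remained at 31.3 and 27.6 CPM without MM401.

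The 3 mammalian homologs of bacterial S18 took different courses. In mammalian mitoribosomes the Mrps18c protein holds the place of S18, Mrps18b occupies another site in the small subunit, and Mrps18a sits in the large subunit. Mrps18b was higher in ESC (70.7 and 68.5 CPM) and at MM401 day 3 (52.0 and 49.8) than in the remaining 10 libraries, which lay between 27.6 and 34.8. Mrps18c was at 28.6 and 29.4 in EpiSC, 21.2 and 20.9 in ESC, 32.0 and 31.8 at day 3, 24.1 and 24.9 at P2, 22.8 and 23.0 at rES passage 6, 20.3 and 20.98 at passage 30 and 29.05 and 26.7 without MM401. Mrps18c was thus low in ESC, where Mrps18b was at its highest. Mrps18a changed less, with 43.3 and 43.8 in EpiSC, 46.2 and 48.4 in ESC and 36.0 and 35.3 at rES passage 30, a called fall against ESC (-0.41 ± 0.07). Mrps18b and Mrps18c are uncertain for shared sequence and Mrps18a is not.

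Other genes of mitochondrial translation were grouped into lists by function. The list of 7 mitoribosomal proteins with other names includes Mrpl57, itself a member. Between day 3 and P2, when 33.3% of all genes tested fell and 37.5% rose, 5 of the 7 fell and none rose, among them Ptcd3, a pentatricopeptide repeat protein of the small subunit (-0.45 ± 0.04), and Ict1, a peptidyl-tRNA hydrolase built into the large subunit (-0.60 ± 0.05). After withdrawal, when 10.4% of all genes rose and 9.3% fell, 4 of the 7 rose and none fell, with Chchd1 at 0.42 ± 0.06 and Aurkaip1 at 0.33 ± 0.05. Dap3, a GTP-binding protein of the small subunit, was higher than in EpiSC at day 3 (1.04 ± 0.05) and at rES passage 30 (1.04 ± 0.05). A further list of 15 holds translation factors and some genes that are not, namely Lrpprc, Slirp, Mtpap and Oxa1l. Against the same shares of all genes, 9 of these 15 fell and none rose from day 3 to P2. They included Lrpprc, which stabilises mitochondrial mRNA (-0.46 ± 0.04), and Tsfm, an elongation factor (-0.40 ± 0.05). Withdrawal gave 1 higher and 1 lower of the 15. Of 24 assembly and rRNA modification genes, 16 fell and none rose from day 3 to P2 (33.3% and 37.5% of all genes), and 10 rose and 1 fell after withdrawal (10.4% and 9.3%). Malsu1, which keeps the subunits apart during assembly by binding Mrpl14, rose after withdrawal by 0.52 ± 0.08, and Mrpl14 by 0.21 ± 0.08.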

How the data were processed

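RNA from RNeasy columns was sequenced single-end from TruSeq libraries, per the labels' protocols. Raw read counts for 24015 symbols were deposited by the authors in 1 table. TopHat2, Subread, DESeq and mm9 appear in the submitters' processing notes, with no versions, and strand use is not stated. The table holds 2 columns with no matching sample, left out here, and 27 symbols that had turned into dates (up to 0.254% of a library). Genes were filtered with filterByExpr, scaled with TMM and tested two-sided by quasi-likelihood in edgeR 4.0.16 (robust; R 4.3.3), on all 14 libraries with 1 mean per group. The standard error is the absolute log2 fold change over the square root of F. Calls and log2 fold changes, but not the standard error, were tested on simulated counts for P2 against day 3 and for withdrawal. Only a small set of genes changed there and no length trend was built in, so that test cannot speak for the wider changes here. Its outcome is not given. DESeq2 1.42.0 and other scalings, filters and fits were tried. Transcript length and GC content came from GENCODE M21 principal transcripts, and their trends were removed per library by loess (limma 3.58.1).

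The members, lists and panel were chosen with earlier results of these data known. Named members are the 8 largest called rises and falls of each main comparison (3 in a secondary one), the 8 widest and 4 narrowest ranges, the 4 highest and 4 lowest levels per kilobase, and a panel of 15. From each other list, up to 4 called genes per comparison were named by smallest adjusted p.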

Additional observations from a re-analysis of the deposited data

How the results depend on the processing

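With 2 libraries a group, small differences rest on single libraries, and a gene that was not called is not shown to be equal. Over the named members, 2431 alternative values kept the call, or the lack of a call, of the main fit. Those called in neither fit may have changed direction and are not counted as reversed. A further 67 lost the call, 36 gained one in the same direction, and 6 changed direction with a call in either fit. The cause was not tested for any value below. Scaling to library totals gave 9 higher members for ESC against EpiSC (median -0.30), 11 higher for rES passage 30 against EpiSC (median -0.38), 9 higher for MM401 P2 against EpiSC, and 30 lower for MM401 day 3 against EpiSC (median -0.032). It reversed Mrpl37 in ESC against EpiSC (-0.0026) and Mrps27 at day 3 against EpiSC (-0.15). For P2 against day 3, the median was -0.33 under RLE size factors and DESeq2 and -0.32 in a fit of the 4 libraries compared, and 1 member was higher under DESeq2, that fit and thinning. For passage 30 against passage 6, 9 members were higher under RLE and 7 with no filter, and 4 were lower under DESeq2. Shares of counts without Rn45s and the 10 highest rows were 0.482% in EpiSC, 0.408% in ESC, 0.491% at day 3, 0.403% at P2, 0.378% in rES passage 6, 0.380% in passage 30 and 0.421% without MM401.

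With single libraries left out, the median for day 3 against EpiSC ran from 0.16 to 0.19, P2 against day 3 had 1 to 2 higher members, day 3 against ESC 2 to 4 lower, passage 30 against passage 6 2 to 7 higher and 2 to 8 lower, and withdrawal 0 to 2 lower. A further 4 alternatives were chosen after seeing the data. Without MM401 day 3 and P2, or without Rn45s, no count moved by over 1.5 times. In the 48 members that share under 10% of their stretches with another gene, the median was -0.038 for ESC against EpiSC, 0.22 for day 3 against EpiSC, -0.33 for P2 against day 3 (with 0% of members higher) and -0.17 for rES passage 30 against EpiSC. With the length and GC trends removed, it was 0.088 for day 3 against EpiSC, -0.15 for passage 30 against EpiSC, -0.01 for passage 30 against ESC and 0.083 for withdrawal. That setting gave 4 higher and 55 lower members for P2 against day 3, against 35.2% and 39.1% of 14718 genes. It gave 23 higher for passage 30 against ESC (35.1% of genes). For passage 30 against passage 6 it gave 15 higher and 3 lower (16.7% and 13.1%). The same setting gave 7 lower for day 3 against ESC (36.2%) and 2 lower for withdrawal (8.64%). It reversed Mrps22 in ESC against EpiSC (0.027) and, in passage 30 against ESC, Mrpl12 (0.032), Mrpl3 (-0.0078) and Mrps12 (0.15).

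Replicate numbers did not pair the libraries: deviations of same-numbered libraries correlated at -0.050 to 0.046 over 21 pairs of groups. With the replicate number as a block, no count of called members moved by over 1.5 times. It gave 20 higher and 38 lower members for ESC against EpiSC, 41 and 20 for day 3 against EpiSC, 2 and 65 for P2 against day 3, and 29 and 0 for withdrawal. Under the block, the call of Mrps22 in ESC against EpiSC was lost, and Mrps18c at day 3 and Mrpl41 at P2 were called.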

Other observations

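Aminoacyl-tRNA synthetases of mitochondria, which load tRNAs with amino acids, also changed between the groups. Tars2, for threonine, was lower than in EpiSC in ESC (log2 fold change -0.75 ± 0.04, adjusted p = 3.5e-18, edgeR, n = 2 per group), at day 3 (-0.59 ± 0.04) and in rES passage 30 (-0.94 ± 0.05), and these comparisons share the EpiSC libraries. Sars2, for serine, was higher in ESC (0.79 ± 0.06) and at day 3 (0.97 ± 0.06). Between day 3 and P2, 12 of the 17 synthetases fell and 1 rose, against 33.3% and 37.5% of all genes tested. After MM401 withdrawal 2 of the 17 rose and none fell, against 10.4% and 9.3%, so the share that rose was near that of all genes.

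Of 10 nuclear regulators of mitochondrial genes, 7 were higher and 2 lower in ESC than in EpiSC (37% and 37.5% of all genes), including Myc (1.33 ± 0.06), Pprc1, a coactivator of NRF1 (0.73 ± 0.04), and Nrf1 itself (0.56 ± 0.05). Gabpa, the DNA-binding part of the ETS factor GABP, was higher than in EpiSC at day 3 (0.63 ± 0.04) and in rES passage 30 (1.05 ± 0.04). Between day 3 and P2, 6 of the 10 fell and 1 rose (33.3% and 37.5% of all genes), and Mycn (-0.67 ± 0.04), Myc (-0.67 ± 0.05), Nrf1 (-0.53 ± 0.04) and Gabpa (-0.42 ± 0.04) were among those that fell. After withdrawal 3 rose and 4 fell (10.4% and 9.3% of all genes): Myc (-0.47 ± 0.06), Pprc1 (-0.23 ± 0.04) and Gabpa (-0.15 ± 0.04) were among the falls and Mycn (0.16 ± 0.04) among the rises. Of 8 genes of mitochondrial transcription and DNA, 5 fell between day 3 and P2 and none rose (33.3% and 37.5% of all genes), among them Tfam (-0.39 ± 0.04), the packaging protein of mitochondrial DNA. No withdrawal change of these 8 was called by edgeR.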
